A study of Homo sapiens with 28 samples.

Results

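Heme synthesis, transport and breakdown was described through 10 genes of that pathway: HMOX1, HMOX2, BLVRA, BLVRB, ALAS1, FECH, SLC48A1, FLVCR1, ABCB6 and PGRMC1. They were picked out by gene symbol and are 10 of the 60286 genes in the deposited count tables. Of these, 9 had enough counts to be tested, and HMOX2 did not. The cells were HT-1080, a human fibrosarcoma line labelled wild type, treated overnight, and their total RNA was sequenced. The 7 groups of 4 libraries were DMSO, the vehicle; RSL3 at 10 nM; LA at 80 µM; CLA18:2 at 80 µM; RSL3+LA and RSL3+CLA18:2, which join 10 nM RSL3 with 80 µM of the named fatty acid; and CLA18:3 at 5 µM. All groups share the same tumour line in culture and stand for no tissue. RSL3 inhibits GPX4, which detoxifies peroxidised membrane lipids, and so induces ferroptosis, an iron-dependent death by lipid peroxidation. LA is linoleic acid and CLA18:2 a conjugated isomer of it, with the same carbons and double bonds but with the double bonds adjacent in conjugation. CLA18:3 is a conjugated acid with a further double bond. The sample labels give the fatty acid doses in mM and the design text gives the same figures in µM, which is used here.

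Heme is an iron-containing ring built by a chain of enzymes. ALAS1 carries out the first and rate-limiting step in non-erythroid cells, and FECH, in the mitochondrion, inserts iron in the last. HMOX1 and HMOX2, the inducible and the constitutive heme oxygenase, open the ring to biliverdin and release carbon monoxide and iron. BLVRA reduces this biliverdin to bilirubin. BLVRB is named biliverdin reductase B and also acts as a flavin reductase. HMOX1 is activated by the transcription factor NRF2 (gene NFE2L2) and repressed by BACH1, which heme itself removes from DNA. The iron that heme oxygenase frees can feed lipid peroxidation or be stored in ferritin, and HMOX1 is much studied in ferroptosis for that reason.

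Library totals ran from 16226270 to 24286824 counts, and levels are given as counts scaled to a common library size (CPM). The 10 mesenchymal markers that were checked, VIM and FN1 among them, were all tested and summed to between 13600 and 16000 CPM. Of 12 erythroid markers, only HBG2 passed the filter, HBA1 and AHSP were at 0 in all 28 libraries, and the sum stayed at or below 2.16 CPM. Of 8 epithelial markers KRT14 and CLDN4 were tested and the sum reached at most 6.48 CPM, and no marker of the 6 blood or the 7 hepatocyte genes passed the filter. The share of mitochondrial mRNA was under 1% in 8 libraries, where it was at most 0.548%, and at least 1.01% in the other 20. Those 8 were 1 of 4 in RSL3, LA and CLA18:3, 2 of 4 in CLA18:2 and 3 of 4 in RSL3+CLA18:2. Detected genes per library numbered 23082 to 23636 in DMSO, 21552 to 22801 in CLA18:2, 19212 to 21462 in RSL3+CLA18:2, 18812 to 20653 in CLA18:3 and 21110 to 23419 in the other three groups. The biological coefficient of variation between replicates was 4.52% in DMSO, 8.9% in CLA18:2, 15.1% in RSL3+CLA18:2, 19.9% in CLA18:3 and 7.27% to 9% in the other three. Thus RSL3+CLA18:2 and CLA18:3 had the widest spread, and the part of these differences in the results was not tested.

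HMOX1 (ENSG00000100292) was lowest in DMSO and, among the groups given 80 µM of a fatty acid, highest in RSL3+CLA18:2. The 7 groups had ranges that did not overlap. CLA18:3 was given at 5 µM, so its values stand beside those of the other acids with no test between them. The 4 DMSO libraries held 29.8, 26.4, 27.2 and 24.4 CPM. In LA the values were 49.9, 46.9, 58.3 and 59.0 CPM, all above DMSO. In RSL3+LA they were 114, 112, 81.3 and 79.2 CPM, a group split into a higher and a lower pair. RSL3 alone gave 124, 125, 126 and 156 CPM, with replicate 4 apart from the other three. CLA18:2 gave 375, 303, 314 and 291 CPM. RSL3+CLA18:2 gave 811, 714, 672 and 771 CPM. CLA18:3 gave 925, 1021, 1026 and 868 CPM. The gene is on chromosome 22 of GRCh38, from 35380361 to 35394214 on the plus strand, and no other gene of the annotation shares its exons. In bulk RNA, fewer expressing cells and less RNA per cell cannot be told apart.

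**Figure D1:**
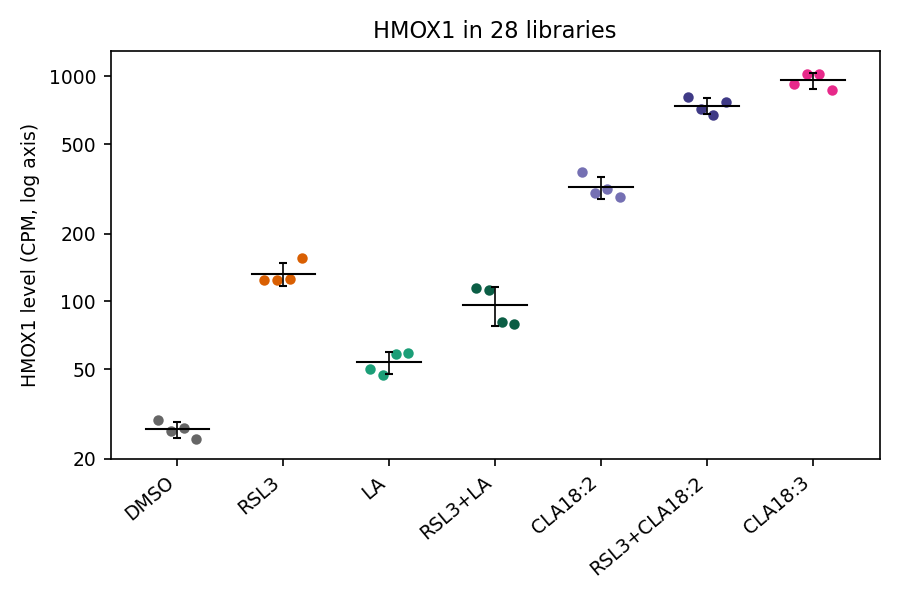
HMOX1 level in CPM on a log axis in each of the 28 libraries, by treatment group. Points are libraries, the wide line is the mean and the bars are 1 SD (n = 4). The groups rise in the order DMSO, LA, RSL3+LA, RSL3, CLA18:2, RSL3+CLA18:2 and CLA18:3, from 24.4 CPM in the lowest DMSO library to 1026 CPM in the highest CLA18:3 library.

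As means, HMOX1 lay at 26.9 ± 2.23 CPM (SD, n = 4) in DMSO, 53.5 ± 6.04 in LA, 96.6 ± 18.9 in RSL3+LA, 133 ± 15.4 in RSL3, 321 ± 37.2 in CLA18:2, 742 ± 61.3 in RSL3+CLA18:2 and 960 ± 77.0 in CLA18:3. It was the only member called higher against DMSO in all 6 treatments. With edgeR's quasi-likelihood test, the log2 fold change was 2.30 with RSL3 (SE 0.11, adjusted p = 1.3e-16) and 0.99 with LA (SE 0.11, adjusted p = 3.7e-08). With CLA18:2 it was 3.57 (SE 0.11, adjusted p = 2.4e-23), an 11.9-fold rise. The combinations gave 1.84 for RSL3+LA (SE 0.11) and 4.78 for RSL3+CLA18:2 (SE 0.12), the latter a 27.5-fold rise. CLA18:3 gave 5.16 (SE 0.12), a 35.6-fold rise. These 6 comparisons share the DMSO libraries and are not independent of each other. In size of rise HMOX1 ranked 5th of 16325 tested genes with RSL3, 151st with LA, 23rd with CLA18:2, 26th with RSL3+LA, 4th with RSL3+CLA18:2 and 3rd with CLA18:3. By p it ranked first with RSL3 and with CLA18:3. In 4 of the 7 groups the library with the most HMOX1 was also the one with the lowest mitochondrial mRNA share. These were RSL3 replicate 4 (0.548%), LA replicate 4 (0.451%), CLA18:2 replicate 1 (0.312%) and RSL3+CLA18:2 replicate 1 (0.263%). In DMSO, RSL3+LA and CLA18:3 they were different libraries, and a link was not tested. Without the 8 libraries of low share, the HMOX1 changes against DMSO were 2.21 with RSL3, 0.94 with LA and 3.47 with CLA18:2. They were 1.83 with RSL3+LA, 4.63 with RSL3+CLA18:2 and 5.15 with CLA18:3. The RSL3+CLA18:2 value then rests on 1 library, which has no spread of its own, and the CLA18:2 value on 2.

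Both isomers were given at the same dose, and HMOX1 was 5.99-fold higher with CLA18:2 than with LA (log2 2.58, SE 0.10, 95% interval 2.37 to 2.80, adjusted p = 5.7e-20 with edgeR). In the presence of RSL3 the isomers differed 7.68-fold (log2 2.94, SE 0.10, 95% interval 2.73 to 3.15). The lowest conjugated-isomer library was above the highest LA library in both settings. RSL3+LA held less HMOX1 than RSL3 alone, with a log2 fold change of -0.46 (SE 0.10, adjusted p = 0.00196), and more than LA alone, with 0.85 (SE 0.10, adjusted p = 7.5e-06). The first of these became -0.37 without RSL3 replicate 4, with an adjusted p of 0.0213. RSL3+CLA18:2 held more HMOX1 than RSL3, by 2.48 on the log2 scale (SE 0.10), and more than CLA18:2, by 1.21 (SE 0.10, adjusted p = 1.8e-10).

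RSL3 multiplied HMOX1 less when either fatty acid was present. The fold with RSL3 was 4.92 without a fatty acid, 1.80 with LA and 2.31 with CLA18:2. The difference of log2 changes was -1.45 for LA (SE 0.15, adjusted p = 4.3e-07) and -1.09 for CLA18:2 (SE 0.14, adjusted p = 1.3e-05), tested as interaction terms in edgeR. In CPM the order was another: RSL3 added 106 ± 7.78 CPM (SE of the difference of group means, n = 4 and 4) without a fatty acid, 43.1 ± 9.92 with LA and 421 ± 35.8 with CLA18:2. The RSL3 response in log2 did not pass the test for a difference between the isomers, at 0.36 (95% interval 0.07 to 0.64, adjusted p = 0.173), and it passed in the fit without a filter on low counts, at 0.34 with an adjusted p of 0.0018. Without the 8 libraries of low mitochondrial share the interaction values were -1.31 for LA and -1.05 for CLA18:2, where RSL3+CLA18:2 is 1 library whose spread is assumed to be that of the other groups.

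**Figure D2:**
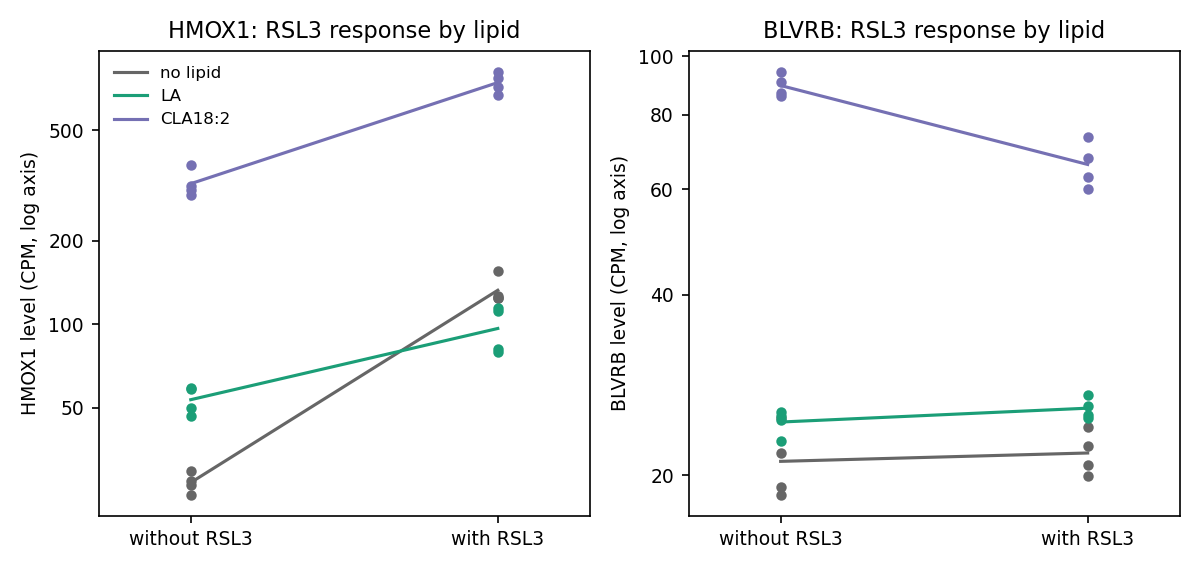
HMOX1 (left) and BLVRB (right) in CPM on log axes, without and with 10 nM RSL3, in cells given no fatty acid, LA or CLA18:2. Points are libraries and lines join group means. The HMOX1 line is steepest without a fatty acid, where the mean goes from 26.9 to 133 CPM, and the BLVRB line falls only with CLA18:2, from 89.4 to 66.0 CPM.

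HMOX2, the constitutive isoform, had 66 counts in all 28 libraries together, with 0 to 20 in a library, and was not tested. This is not read as a lack of expression. Its neighbour NMRAL1, on the opposite strand and sharing 6.0% of HMOX2's exon bases, had 23 counts and DNAJA3, next to it, had 26, while CDIP1 close by had 2432. The annotation and strand setting used for counting are not given in the sources used here, and the cause of the low count was not tested. HMOX1 made up between 99.0 and 100% of the counts of the 2 genes in every library, a share that carries this limit. HMOX2 lies on chromosome 16 from 4474690 to 4510347, plus strand.

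Of the biliverdin reductases, BLVRB was called higher in 4 of the 6 treatments and BLVRA in none. BLVRB (ENSG00000090013, chromosome 19 from 40447765 to 40465840, minus strand) held 21.8, 19.1, 25.0 and 18.6 CPM in DMSO. RSL3 gave 20.8, 24.1, 22.4 and 19.9 CPM, within the range of LA, RSL3+LA and DMSO, which together ran from 18.6 to 27.3 CPM. CLA18:2 gave 87.0, 85.9, 90.6 and 94.2 CPM, far above that range. RSL3+CLA18:2 gave 60.03, 73.4, 67.8 and 62.9 CPM, and CLA18:3 gave 58.6, 55.4, 64.8 and 69.9 CPM. Against DMSO, BLVRB rose by 2.08 on the log2 scale with CLA18:2 (SE 0.08, adjusted p = 1.8e-20), 4.23-fold. It rose by 1.64 with RSL3+CLA18:2 (SE 0.08) and 1.56 with CLA18:3 (SE 0.08). With RSL3+LA it was called at 0.29 (SE 0.09, adjusted p = 0.0227). That call was lost with limma voom, at an adjusted p of 0.0528, and leaving out DMSO replicate 2 or 4, or RSL3+LA replicate 1 or 4, gave adjusted p between 0.0528 and 0.123. With RSL3 alone the value was 0.05 (95% interval -0.13 to 0.22) and with LA 0.22 (adjusted p = 0.139), neither past the test.

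BLVRB was the one member called lower when RSL3 was added to a fatty acid. RSL3+CLA18:2 stood below CLA18:2 by -0.44 on the log2 scale (SE 0.08, adjusted p = 1.6e-04 with edgeR), with no overlap between the groups. The interaction with CLA18:2 was -0.48 (SE 0.12, adjusted p = 0.0137) and the difference of the RSL3 response between the isomers -0.51 (SE 0.11, adjusted p = 0.00698). Without the 8 libraries of low mitochondrial share the same 3 values were -0.43, -0.50 and -0.50. All 3 calls were lost in that fit, and the cause was not tested. It held 1 RSL3+CLA18:2 library and 2 CLA18:2 libraries. HMOX1 and BLVRB thus moved in opposite directions when RSL3 was added to CLA18:2. The isomers differed for BLVRB by 1.86 on the log2 scale without RSL3 (SE 0.08) and by 1.35 with it (SE 0.08).

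BLVRA (ENSG00000106605, chromosome 7 from 43758680 to 43807342, plus strand) had no call against DMSO in any of the 6 treatments with edgeR, DESeq2 or limma voom, and its unadjusted p was under 0.05 with RSL3 and RSL3+LA. Its library values ran from 21.5 to 23.2 CPM in DMSO and from 16.6 to 27.8 CPM over all groups. The log2 changes lay between -0.23 with RSL3+LA (95% interval -0.42 to -0.05, adjusted p = 0.11) and 0.11 with CLA18:3 (95% interval -0.07 to 0.29, adjusted p = 0.382). In CLA18:3 the libraries formed a lower pair, 20.3 and 21.1 CPM, and a higher pair, 26.9 and 27.8 CPM. In a fit of the RSL3+LA and DMSO libraries alone, the RSL3+LA value was -0.24 with an adjusted p of 0.041.

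The synthesis enzymes ALAS1 and FECH rose in the conjugated-acid groups. ALAS1 (ENSG00000023330, chromosome 3 from 52198086 to 52214327, plus strand) held 48.4, 46.2, 44.6 and 47.2 CPM in DMSO. In CLA18:2 it held 80.4, 71.9, 76.3 and 75.2 CPM, in RSL3+CLA18:2 73.7, 74.9, 77.1 and 74.1 CPM, and in CLA18:3 66.0, 73.3, 74.7 and 71.1 CPM. All 12 of these libraries were above every library of the other 4 groups, whose highest was 60.2 CPM in RSL3+LA. The rises were 0.71, 0.69 and 0.61 on the log2 scale (each SE 0.06), with adjusted p of 2.1e-12, 6.1e-12 and 1.4e-10 from edgeR. ALAS1 was also called with RSL3+LA, at 0.23 (SE 0.06, adjusted p = 0.00664), and this call was lost without RSL3+LA replicate 1, at 0.18 with an adjusted p of 0.0612. The isomers differed by 0.56 without RSL3 and 0.46 with it (each SE 0.06).

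FECH (ENSG00000066926, chromosome 18 from 57548283 to 57586772, minus strand) held 32.9 to 33.9 CPM in the 4 DMSO libraries. It held 50.4, 50.8, 51.8 and 55.3 CPM in CLA18:2, 48.1, 49.4, 42.8 and 50.5 CPM in RSL3+CLA18:2, and 41.1, 39.6, 37.2 and 40.3 CPM in CLA18:3. All 12 of these libraries were above every DMSO library, and CLA18:2 and RSL3+CLA18:2 overlapped each other. The log2 changes were 0.64 with CLA18:2 (SE 0.06, adjusted p = 3.0e-10), 0.51 with RSL3+CLA18:2 (SE 0.06) and 0.24 with CLA18:3 (SE 0.06, adjusted p = 0.00311). With RSL3, LA and RSL3+LA the values were -0.12, 0.04 and -0.03 and did not pass. Per kilobase of merged exon, ALAS1 stood at 18.4 ± 0.635 CPM per kb in DMSO (SD, n = 4) and FECH at 7.49 ± 0.0902.

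The transporters differed in direction. SLC48A1 (ENSG00000211584, chromosome 12 from 47753916 to 47782753, plus strand), also called HRG1, carries heme out of lysosomes and endosomes into the cytosol. Its DMSO libraries held 11.3, 11.6, 14.4 and 11.9 CPM, and those of CLA18:2 24.2, 22.8, 24.4 and 23.4 CPM. RSL3+CLA18:2 gave 24.1, 17.9, 21.2 and 23.3 CPM and CLA18:3 22.5, 21.2, 25.2 and 20.4 CPM. It rose by 0.94, 0.81 and 0.86 on the log2 scale (each SE 0.09), with adjusted p of 2.5e-10, 1.0e-08 and 4.4e-09. RSL3, LA and RSL3+LA libraries lay between 11.6 and 14.5 CPM, and no change passed there. Genes on the opposite strand share 0.7% and 1.7% of its exon bases.

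FLVCR1 (ENSG00000162769, chromosome 1 from 212858255 to 212899363, plus strand), described as a heme exporter at the cell surface and also as a choline transporter, was the one member called lower against DMSO. Its DMSO libraries held 19.1, 16.6, 17.8 and 17.2 CPM. CLA18:2 gave 12.1, 12.9, 13.1 and 11.3 CPM, RSL3+CLA18:2 14.0, 14.6, 14.3 and 14.8 CPM, and CLA18:3 13.9, 11.4, 14.4 and 14.8 CPM, all below the lowest DMSO library. The log2 changes were -0.51 with CLA18:2 (SE 0.09, adjusted p = 6.8e-06), -0.29 with RSL3+CLA18:2 (SE 0.08, adjusted p = 0.00658) and -0.37 with CLA18:3 (SE 0.08, adjusted p = 6.8e-04). The second was -0.31 without the 8 libraries of low mitochondrial share. Its call was lost in that fit, where 1 RSL3+CLA18:2 library was left. CLA18:2 stood below LA by -0.31 (SE 0.09, adjusted p = 0.00447), and this call was lost without those libraries (adjusted p = 0.078) and with no filter on low counts (adjusted p = 0.0583).

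ABCB6 (ENSG00000115657, chromosome 2 from 219209766 to 219219017, minus strand), a porphyrin transporter, was sparsely counted, with 9 to 62 counts in a library. DMSO gave 1.104, 0.740, 0.860 and 1.17 CPM and CLA18:2 gave 1.29, 2.93, 2.39 and 1.64 CPM. It was called higher with CLA18:2, at 1.09 on the log2 scale (SE 0.36, adjusted p = 0.0159). That call was lost without DMSO replicate 2 (adjusted p = 0.0552) and without CLA18:2 replicate 2 (adjusted p = 0.0847). A same-strand gene, ENSG00000284820, shares 54.7% of ABCB6's exon bases, so its counts are uncertain. PGRMC1 (ENSG00000101856, chromosome X from 119236245 to 119244466, plus strand), a heme-binding membrane protein that also binds FECH, held 122, 118, 120 and 116 CPM in DMSO. CLA18:2 gave 214, 203, 208 and 218 CPM, RSL3+CLA18:2 199, 207, 226 and 191 CPM, and CLA18:3 193, 198, 183 and 176 CPM. Libraries of RSL3, LA and RSL3+LA reached at most 137 CPM. PGRMC1 rose by 0.82, 0.79 and 0.65 on the log2 scale (each SE 0.05), with adjusted p of 1.6e-15, 6.8e-15 and 1.3e-12.

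**Figure D3:**
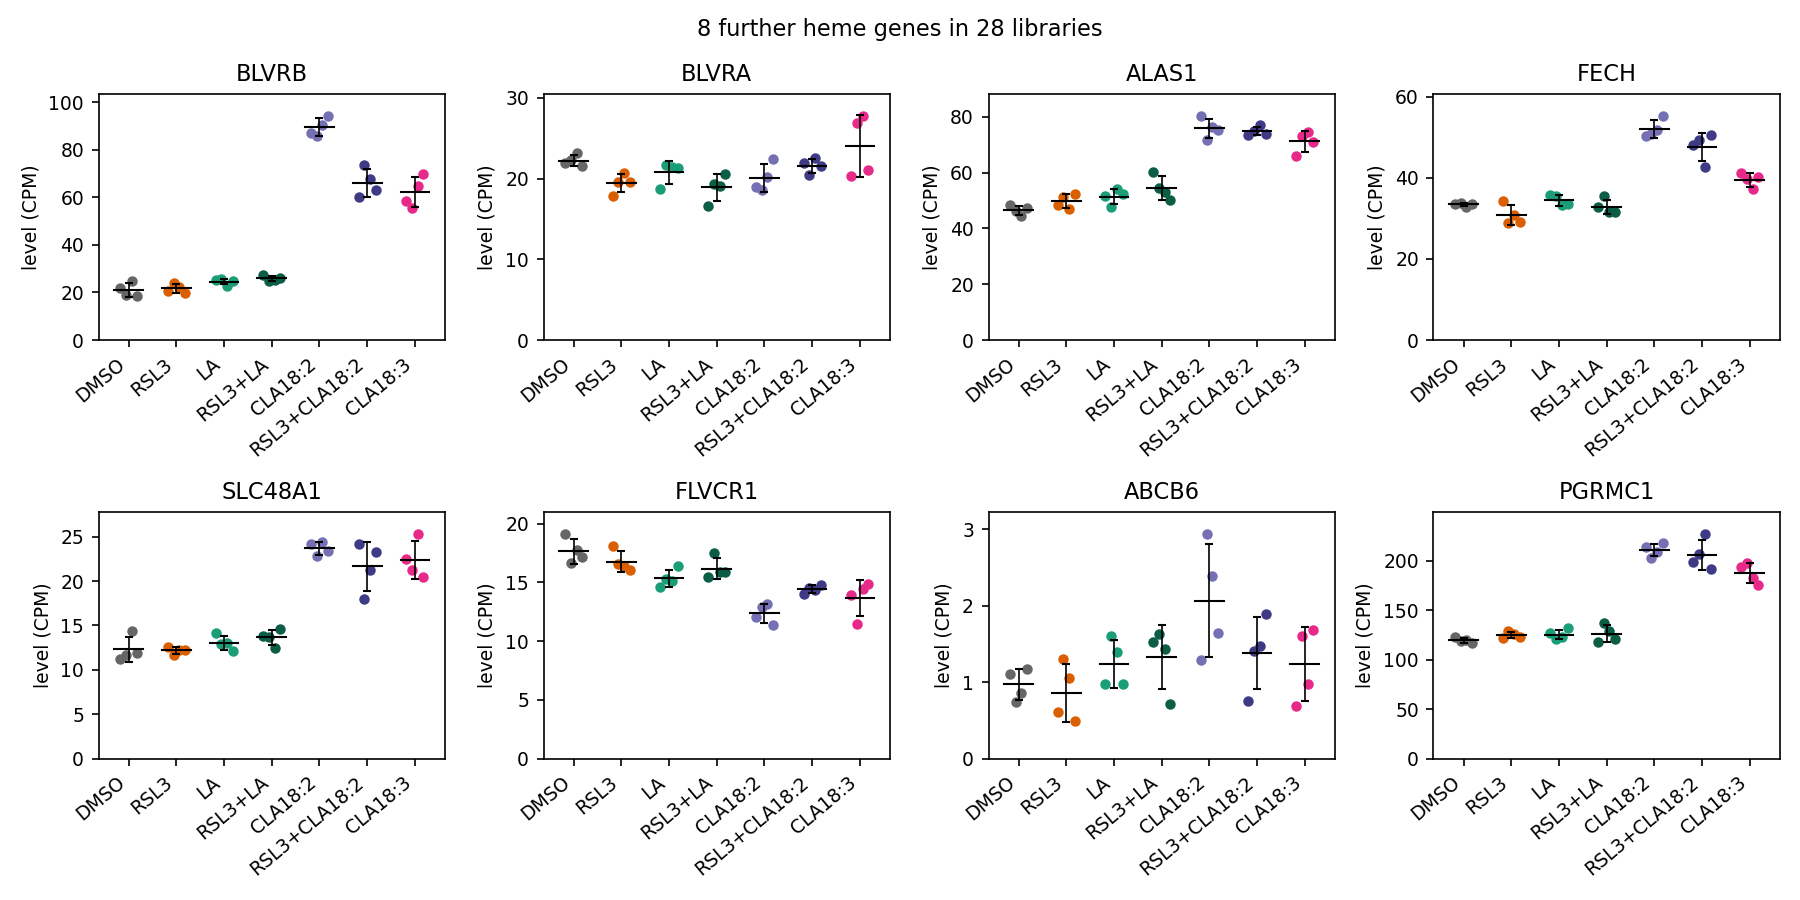
Levels of BLVRB, BLVRA, ALAS1, FECH, SLC48A1, FLVCR1, ABCB6 and PGRMC1 in CPM in each library, on linear axes from 0. Points are libraries, wide lines are means and bars are 1 SD (n = 4). BLVRB, ALAS1, FECH, SLC48A1 and PGRMC1 stand higher in CLA18:2, RSL3+CLA18:2 and CLA18:3 than in DMSO, FLVCR1 stands lower, and BLVRA shows no such split.

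By count, 1 of the 9 tested members was called with RSL3, HMOX1, higher, where 0.202% of all tested genes were called in either direction. With LA 1 was called, HMOX1, against 8.32% of all genes, and with RSL3+LA 3, all higher, against 10.2%. With CLA18:2, 8 of 9 were called, 7 higher and 1 lower, against 38.8% of all genes. RSL3+CLA18:2 had 7 called, 6 higher and 1 lower, against 35.2%, and CLA18:3 had 7 called, 6 higher and 1 lower, against 35.9%. When the 8 libraries of low mitochondrial share were left out, the count was lower with RSL3+CLA18:2, where 1 library was left. It was the same in the other treatments, and shares over all genes in that fit are not given. The median log2 change of the 9 members was 0.82 with CLA18:2, 0.69 with RSL3+CLA18:2 and 0.61 with CLA18:3, where the median of all tested genes was -0.02, -0.02 and 0.00. With RSL3, LA and RSL3+LA the members' median was -0.02, 0.08 and 0.15, near the all-gene medians of 0.01, 0.00 and 0.01. The members, and the lists described below, were chosen with earlier results of these data known. Their counts and medians therefore describe the chosen genes and are no test of the pathway. CLA18:2 was given at 80 µM and CLA18:3 at 5 µM, so their values stand side by side and no test was made between them.

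**Figure D4:**
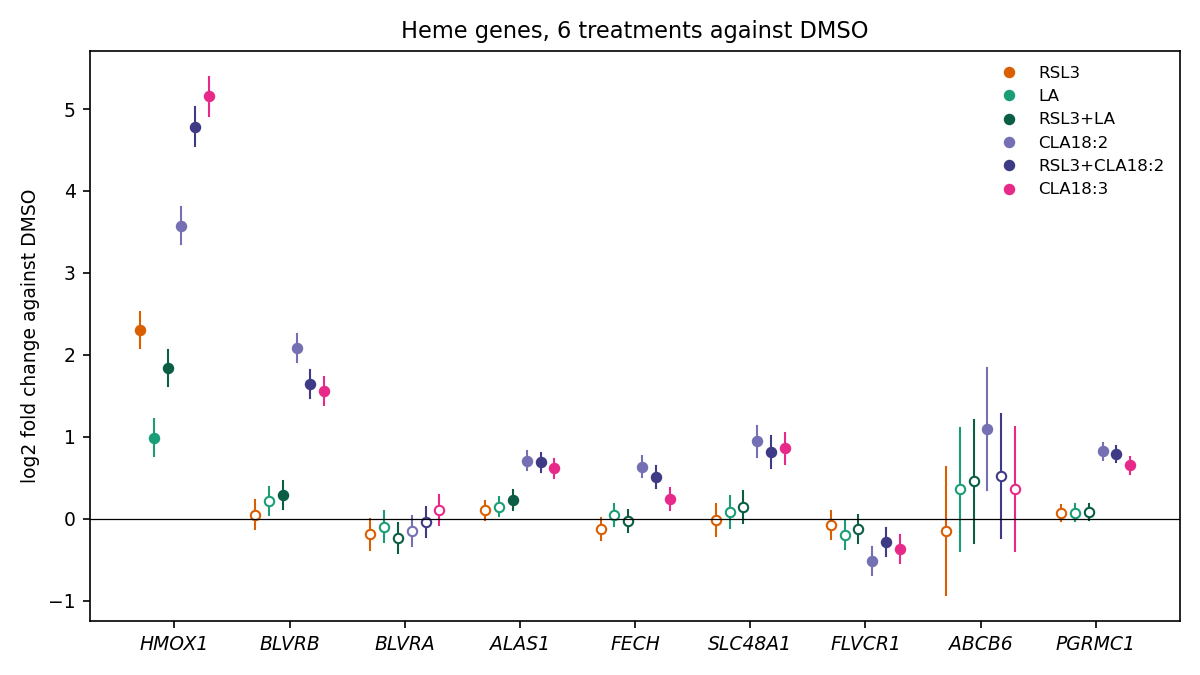
log2 fold change against DMSO of the 9 tested genes in 6 treatments, with 95% intervals from edgeR. Filled points passed an adjusted p of 0.05 and open points did not. HMOX1 is filled in all 6 treatments, and the next largest rise is that of BLVRB with CLA18:2, at 2.08.

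Between combinations and their parts, RSL3+LA against LA called 1 member, HMOX1, where 0.049% of all genes, 8 in number, were called. RSL3+LA against RSL3 called HMOX1 lower, against 9.58% of all genes. RSL3+CLA18:2 against RSL3 called 6 members, all higher, against 30.4%. RSL3+CLA18:2 against CLA18:2 called HMOX1 higher and BLVRB lower, against 11.9%. Between the isomers, 6 were higher and FLVCR1 lower with CLA18:2 than with LA, against 30.2%, and 6 were higher with RSL3+CLA18:2 than with RSL3+LA, against 26.1%. In the interaction with LA 1 member, HMOX1, was called lower, against 0.0245% of all genes, which is 4 genes. The interaction with CLA18:2 called HMOX1 and BLVRB lower, against 3.55%, and the interaction between isomers called BLVRB lower, against 3.63%.

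Promoter sequence was searched in the RefSeq windows of GRCh38.p14, from 250 bases before to 50 after each start, where 9 members had 10 windows and HMOX1 had no entry. The antioxidant response element core, TGANNNNGC on either strand, is the element that NRF2 with small MAF proteins binds. It was in 3 of the 10 windows, or 30.0%, and in 41.8% of all 35116 promoter windows. The AP-1 site, TGANTCA, was in 0 of the 10 and in 7.7% of all. FECH held 2 matches at 60 and 38 bases before its start, on opposite strands, ABCB6 held 1 at 152 bases before, and PGRMC1 held 1 at 5 bases after the start. The 250 bases before the start are shown for FECH, chr18:57586703-57586952, minus strand, and for ABCB6, chr2:219218959-219219208, minus strand, with the matched letters in capitals, because these are the members with a match upstream of the start. A match describes letters in a window and says nothing of binding.
FECH: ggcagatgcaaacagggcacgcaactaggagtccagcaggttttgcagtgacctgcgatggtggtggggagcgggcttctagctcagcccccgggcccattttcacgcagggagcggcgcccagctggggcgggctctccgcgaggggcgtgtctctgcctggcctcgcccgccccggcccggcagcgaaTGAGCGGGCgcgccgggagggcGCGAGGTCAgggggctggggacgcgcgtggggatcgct
ABCB6: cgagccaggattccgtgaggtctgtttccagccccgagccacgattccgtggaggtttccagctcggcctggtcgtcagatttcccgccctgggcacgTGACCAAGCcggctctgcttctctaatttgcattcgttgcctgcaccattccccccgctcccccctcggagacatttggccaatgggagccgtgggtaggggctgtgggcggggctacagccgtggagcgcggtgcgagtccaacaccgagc

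The other heme pathway genes were 28, of which 25 were tested. With RSL3 the call was 0 with edgeR, DESeq2 and limma voom alike, and 1 gene had an unadjusted p under 0.05. Higher and lower calls were 1 and 0 with LA, 2 and 1 with RSL3+LA, 4 and 3 with CLA18:2, 5 and 2 with RSL3+CLA18:2, and 11 and 4 with CLA18:3. Over all tested genes the shares called in those 5 treatments were 8.32%, 10.2%, 38.8%, 35.2% and 35.9%, and 0.202% with RSL3. The 7 of 25 with CLA18:2 and 7 of 25 with RSL3+CLA18:2 were near the shares over all genes. The 15 of 25 with CLA18:3 was a larger share, and no difference in share was tested. When the 8 libraries of low mitochondrial share were left out, fewer of these genes were called with CLA18:3 and with RSL3+CLA18:2. The latter had 1 library left. More were called with LA, and the counts with RSL3+LA and CLA18:2 stayed the same. Shares over all genes in that fit are not given, so the larger share with CLA18:3 is that of the main fit only. Their median change in CLA18:2 was 0.00, near that of all genes. UROS, a ring-closing enzyme of synthesis, was called higher in 4 of 6 treatments, with 0.26 in RSL3+LA and 0.27 in CLA18:3 the higher of its values (SE 0.05), and its call with RSL3+CLA18:2 was lost without those 8 libraries, at an adjusted p of 0.314. COX15, which makes heme A, was higher in 3, by 0.48 with CLA18:2 (SE 0.07). HEBP1, a heme-binding protein, was higher in the same 3 treatments, by 0.57 with CLA18:3 (SE 0.09). LRP1, a receptor that takes up the heme-hemopexin complex among many ligands, was higher in all but RSL3, by 1.14 with CLA18:2 (SE 0.09, adjusted p = 2.0e-12 in edgeR). SLC25A37, or mitoferrin 1, an iron importer of the mitochondrion, was lower in 3, by -0.52 with RSL3+CLA18:2 (SE 0.08). That value was -0.28 without those 8 libraries, where 1 RSL3+CLA18:2 library was left. PGRMC2, the paralog of PGRMC1, was lower in the same 3 treatments where PGRMC1 was higher, at -0.27, -0.25 and -0.18 (each SE 0.06). Without those 8 libraries PGRMC2 was at -0.23 with RSL3+CLA18:2, with an adjusted p of 0.0728.

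Of 8 genes of transcriptional control, 5 were higher with CLA18:2, 4 with RSL3+CLA18:2 and 4 with CLA18:3, with edgeR and with limma voom, and 0 were lower. DESeq2 gave the same higher counts and called 1 lower with CLA18:3. With LA 1 was lower, with RSL3+LA 2 were lower, and with RSL3 edgeR, DESeq2 and limma voom called 0, while 3 had an unadjusted p under 0.05. All tested genes were called at 38.8% with CLA18:2, 35.2% with RSL3+CLA18:2, 35.9% with CLA18:3, 8.32% with LA, 10.2% with RSL3+LA and 0.202% with RSL3. Leaving out the 8 libraries of low mitochondrial share, with 1 RSL3+CLA18:2 library left, did not change the higher counts. More genes were then lower with LA, and shares over all genes in that fit are not given. NFE2L2, which encodes NRF2, rose by 0.62 with CLA18:2, 0.62 with RSL3+CLA18:2 and 0.40 with CLA18:3 (each SE 0.06). KEAP1, which targets NRF2 for degradation, rose by 0.52, 0.43 and 0.46 (each SE 0.05). MAFG, a small MAF partner, rose by 1.19, 1.07 and 0.97 (each SE 0.05). MAFF, another small MAF, rose by 0.62, 0.69 and 0.96 in those groups and fell by 0.29 with LA and by 0.42 with RSL3+LA (each SE 0.08). BACH1, the heme-sensing repressor, had no call against DMSO, with values between -0.15 and 0.11. It was higher with CLA18:2 than with LA by 0.20 (SE 0.07, adjusted p = 0.0159) and in the same comparison with RSL3 by 0.26 (SE 0.07, adjusted p = 0.00255). Both calls were lost without those 8 libraries, at 0.15 with an adjusted p of 0.187 and at 0.26 with 0.0501.

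Both ferritin chains, which store iron of the kind heme breakdown releases, were called higher in all 6 treatments. FTH1 rose by 0.39 with RSL3, 0.42 with LA, 0.60 with RSL3+LA, 1.35 with CLA18:2, 1.35 with RSL3+CLA18:2 and 1.41 with CLA18:3 (each SE 0.08). FTL rose by 0.35, 0.57, 0.76, 1.76, 1.46 and 1.38 in the same order (each SE 0.05). Like BLVRB, FTL had a negative interaction of RSL3 with CLA18:2, at -0.65 (SE 0.06, adjusted p = 5.2e-08). FTH1 had one of -0.39 (SE 0.11, adjusted p = 0.0322). Without the 8 libraries of low mitochondrial share these were -0.57 (adjusted p = 4.6e-05) for FTL and -0.43 for FTH1, whose call was lost at an adjusted p of 0.105, with 1 RSL3+CLA18:2 library left. Of the 4 iron genes of that list, counting higher and lower, the calls were 2 and 0 with RSL3, 3 and 0 with LA, 2 and 0 with RSL3+LA, 3 and 0 with CLA18:2, 2 and 0 with RSL3+CLA18:2 and 2 and 0 with CLA18:3. The shares of all tested genes called were 0.202%, 8.32%, 10.2%, 38.8%, 35.2% and 35.9% in the same order. Without the 8 libraries of low mitochondrial share 1 of these calls was lost, that of TFRC, the transferrin receptor, with CLA18:2, at 0.05 with an adjusted p of 0.471. TFRC is named after its values were seen.

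**Figure D5:**
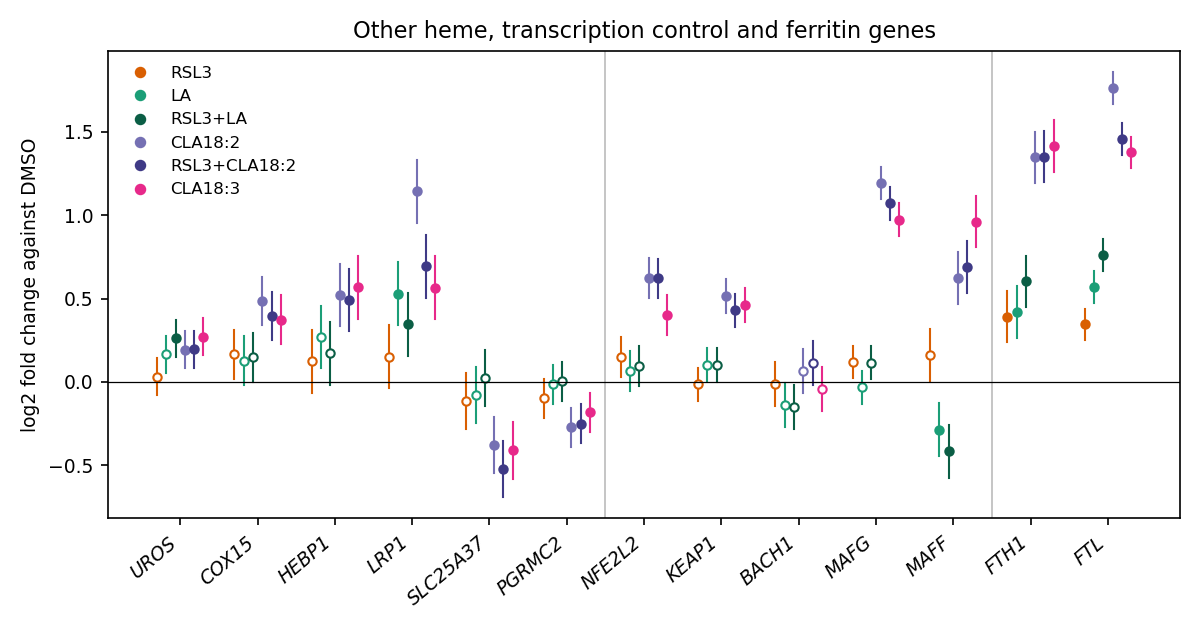
log2 fold change against DMSO in 6 treatments for heme pathway genes (left block), genes of transcriptional control (middle) and ferritin chains (right), with 95% intervals from edgeR. Filled points passed an adjusted p of 0.05. FTH1 and FTL are filled in all 6 treatments, and BACH1 is open in all 6.

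The genes whose changes were most like those of HMOX1 were ranked by the root mean square difference of log2 fold change over the 6 comparisons with DMSO, among 11953 genes with a mean of at least 2 CPM. They were NMRAL2P (0.69), CXCL3 (0.86), AKR1B10 (0.89), AKR1C1 (0.90) and CXCL8 (0.98). NMRAL2P changed by 1.47 with RSL3, 0.96 with LA, 4.88 with CLA18:2, 1.73 with RSL3+LA, 4.36 with RSL3+CLA18:2 and 4.61 with CLA18:3. AKR1B10 and AKR1C1 have close paralogs among which reads can be shared, and NMRAL2P is named as a pseudogene, so their counts are uncertain. Among the members, BLVRB ranked 58th (2.35), SLC48A1 330th (2.89), PGRMC1 440th (2.96) and ALAS1 499th (2.99). FECH ranked 1475th (3.20), BLVRA 7402nd (3.52) and FLVCR1 10758th (3.74). All these differences were larger than those of the 5 genes named above. ABCB6 was under the 2 CPM floor, and HMOX2 was not tested. The likeness is a description over 6 comparisons that share DMSO.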

How the data were processed

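RNA of 28 HT-1080 libraries was sequenced on an Illumina instrument, per the labels' protocols. The deposited files hold raw counts per gene, made by the authors with HISAT, SAMtools and featureCounts on hg38, and DESeq2 is also named, per the submitters' processing notes. Their versions, the annotation and the strand setting are not given in the sources used here.

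Genes were filtered with edgeR's filterByExpr on the 7 groups (16325 of 60286 kept), scaled by TMM and fitted with 1 mean per group over all 28 libraries in edgeR 4.0.16 under R 4.3.3. Contrasts were tested by quasi-likelihood F tests, with p adjusted by Benjamini-Hochberg over all tested genes and called under 0.05. The SE is the size of the log2 fold change over the square root of F, with a 95% interval. CPM are counts divided by the library total times its TMM factor, in the usual unit. The scripts were tested on simulated data. Alternatives used limma 3.58.1 and DESeq2 1.42.0. Plots used matplotlib 3.10.9 on Python 3.11.15.

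The members and lists were chosen with earlier results of these data known. Named beyond the 10 members are list genes past the test in at least 3 of 6 comparisons with DMSO, BACH1, NFE2L2, FTH1 and FTL whatever their values, and the 5 genes most like HMOX1. Positions are from GENCODE release 29 on GRCh38, and promoters from RefSeq GRCh38.p14. The design text calls replicates independent without saying what separates them, so p-values measure the spread between these samples. Within groups, 42 pairs of libraries differed by chi-square per degree of freedom of 2.34 to 25.1, so none was counted as a repeat.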

Additional observations from a re-analysis of the deposited data

Results flagged for a closer look

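HMOX1 in RSL3 replicate 4 was 155.7 CPM, far from the other 3 libraries of its group at 124.2 to 126.1 CPM. BLVRA in LA replicate 1 was 18.7 CPM, apart from the other 3 at 21.4 to 21.7 CPM. These are 2 of 63 checks, each of 1 tested member in 1 group for a library apart from the rest. Chance alone gives about 1 in 20 of such checks.

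The response of HMOX1 to RSL3 differed between cells with and without LA by -1.45 on the log2 scale, and between cells with and without CLA18:2 by -1.09. The response of BLVRB to RSL3 differed between cells with and without CLA18:2 by -0.48, and between CLA18:2 and LA by -0.51. All 4 were tested as interaction terms in edgeR.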

How the results depend on the processing

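Of 2222 values of the 9 tested members over 15 comparisons and their alternatives, 2202 kept their direction and side of the threshold where a call was involved, 14 lost a call, 6 gained one and 0 reversed a call. A sign change of a value without a call on either side was not counted. Another scaling moved the median of all genes by under 0.1 in log2. Unless a value or the alternative's own construction shows it, the cause was not tested. The count of all genes called was 33 with RSL3, against 66 with DESeq2's Wald test and 112 with no filter on low counts. With LA it was 1358, against 2394 when only the groups compared were fitted. RSL3+LA against LA called 8, against 37 and 164 with DESeq2 and no filter, and the RSL3 by LA interaction 4, against 37 and 132. The RSL3 by CLA18:2 interaction called 580, against 889 with DESeq2. RSL3+LA against RSL3 called 1 member, and 2 with DESeq2 and with no filter, where BLVRB was added at 0.25 and 0.26. The interaction between isomers called 1 member, and 2 with no filter. The HMOX1 share in DMSO was 99.65%, and 99.77% per exon length.

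Leaving out the 8 libraries with under 1% mitochondrial mRNA was chosen after seeing the data. It moved RSL3+CLA18:2 against CLA18:2 to 1 member and 849 genes (from 2 and 1942), the RSL3 by LA interaction to 2 genes (from 4), the RSL3 by CLA18:2 interaction to 1 member and 198 genes (from 2 and 580), and the interaction between isomers to 0 members and 203 genes (from 1 and 593), with 1 RSL3+CLA18:2 library left. In that last comparison edgeR gave BLVRB at -0.50.

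Leaving out 1 library at a time gave 1 to 2 members with LA (2 without DMSO replicate 3, BLVRB added), 1 to 3 with RSL3+LA (1 without RSL3+LA replicate 1) and 1 to 2 in RSL3+LA against RSL3 (2 without RSL3 replicate 2). It gave 20 to 29 genes with RSL3 (20 without DMSO replicate 3), 4 to 9 in RSL3+LA against LA (4 without RSL3+LA replicate 1, 2 or 3) and 374 to 591 in the interaction between isomers, with the low values without RSL3+LA replicate 1, LA replicate 3 or CLA18:2 replicate 2.

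With the replicate number as a block, RSL3 called 33 genes and 1 member, CLA18:2 6341 genes and 8 members, and no member gained or lost a call in the 15 comparisons. Whether the numbers pair the samples was not settled. Of 84 correlations of deviations between same-numbered libraries, 1 was over 0.1 (range -0.10 to 0.13). In 0 of 21 pairs of groups were all over 0.1. Among the 9049 genes with a mean of at least 10 CPM, 28 of the 84 were over 0.1 (range -0.405 to 0.405), again with 0 pairs of groups all over 0.1. There RSL3 with LA ran from 0.0567 to 0.38, and RSL3 with RSL3+CLA18:2 from 0.098 to 0.332. CLA18:2 with RSL3+CLA18:2 ran from -0.263 to -0.0472. Of the members, ABCB6 had 9 to 62 and HMOX2 0 to 20 counts in a library, which limits their precision.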
